A study of Mus musculus with 20 samples.

Results

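Matrix metalloproteases are zinc-dependent enzymes that cut collagens and other matrix proteins, and tissue inhibitors of metalloproteases (TIMPs) bind and block them. Of the 55401 genes in the deposited count table of mouse epididymal white adipose tissue (eWAT), the 9 rows described here were those of the proteases Mmp2, Mmp3, Mmp9, Mmp14 and Mmp19 and of the inhibitors Timp1, Timp2, Timp3 and Timp4. They were chosen by gene symbol, with earlier results of these data known, and all 9 passed the filter on low counts. The fat pad came from mice under random food restriction (10 libraries), which joins intermittent fasting to 5% calorie restriction, or on a control diet (10 libraries). The labels give no strain, age or duration of the diet, and no genotype or other treatment was named for either group.

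Adipose tissue remodels its matrix as fat cells enlarge or shrink, and these enzymes act outside or at the surface of the cell. Mmp14 is anchored in the cell membrane and activates the Mmp2 proenzyme on the cell surface, with Timp2 as the bridge between them, so Timp2 both helps and, in excess, blocks that step. Mmp9, the other gelatinase beside Mmp2, is made largely by myeloid cells. Timp3 is bound to the matrix, and Timp4 is an inhibitor that is abundant in fat and heart.

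The libraries held 18291602 to 44061508 counts in the restricted group and 14306528 to 38789768 counts in the control group. A label for contamination by spermatocytes read Yes for 3 restricted and 7 control libraries and was a term in the fit. Summed transcripts of 10 skeletal muscle genes reached 3640 CPM (counts scaled to the size of their library) in restricted library 1 and 1901 CPM among control libraries, and 6 libraries (restricted 1 and controls 1 to 5) stood apart by them. Fitted differences by diet and counts of called genes in lists are therefore given with and without these 6. Levels, sums, ratios and correlations include them. Transcripts of adipocyte genes were abundant in every library (summed CPM 49680 to 59790 in restricted and 43130 to 55380 in control libraries). Nothing in the labels ties a library to its own animal, so p-values measure the spread between these libraries. In bulk tissue, fewer cells of a type and less RNA per cell cannot be told apart.

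The promoter sequences shown are those of Mmp14, which was lower under restriction, and of Mmp3 and Timp1, for which no difference was called. Each is the 250 bases before the RefSeq start on build GRCm38.p6, read 5′ to 3′ on the plus strand, and none overlaps an annotated exon. They lie at chr14:54431348-54431597 for Mmp14, chr9:7445572-7445821 for Mmp3 and chrX:20869916-20870165 for Timp1. Capitals mark matches, on either strand, to the AP-1 motif TGANTCA, the GC box GGGCGG and the TATA box TATAAA.
Mmp14: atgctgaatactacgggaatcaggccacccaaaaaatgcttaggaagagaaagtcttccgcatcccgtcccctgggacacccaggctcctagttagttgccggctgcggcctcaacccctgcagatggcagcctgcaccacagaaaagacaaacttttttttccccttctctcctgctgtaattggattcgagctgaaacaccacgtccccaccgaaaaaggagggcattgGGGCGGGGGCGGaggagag
Mmp3: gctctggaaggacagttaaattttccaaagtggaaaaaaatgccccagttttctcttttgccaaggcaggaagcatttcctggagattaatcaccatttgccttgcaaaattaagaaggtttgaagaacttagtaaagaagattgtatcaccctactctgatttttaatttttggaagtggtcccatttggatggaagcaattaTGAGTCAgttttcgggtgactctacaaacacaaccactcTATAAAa
Timp1: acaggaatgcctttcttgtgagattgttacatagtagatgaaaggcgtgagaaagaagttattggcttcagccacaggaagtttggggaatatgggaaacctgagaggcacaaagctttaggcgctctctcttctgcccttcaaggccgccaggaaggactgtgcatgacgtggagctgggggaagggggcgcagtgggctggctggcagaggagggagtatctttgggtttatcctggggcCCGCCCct
The Mmp14 window held 2 adjoining GC boxes, at −19 to −14 and −13 to −8 from the start, and no AP-1 or TATA match. The Mmp3 window held an AP-1 match (TGAGTCA) at −46 to −40 and a TATA match at −7 to −2. The Timp1 window held a GC box on the minus strand at −8 to −3. The windows of Timp2, called lower, and Timp3, not called, each held a GC box but overlapped annotated exons and are not shown. The Timp4 window, also not shown, held none of these motifs. Of 32851 promoters of the same length, 6.75% held the AP-1 motif, 32.7% the GC box and 12.4% the TATA box. The GC box and TATA box were searched after the fold changes were known.

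Restriction went with lower transcripts of Mmp2, Mmp14, Timp2 and Mmp9, and with no called change of the other 5 genes. Mmp2, Mmp14 and Timp2, the parts of the surface activation complex, had log2 fold changes of −0.63 to −0.67, and Mmp9 one of −1.36. In the edgeR quasi-likelihood fit, 4 of the 9 genes were lower at an adjusted p under 0.05, against 7.29% of all 15986 tested genes. None of the 9 was called higher, against 6.31% of all tested genes, and none was higher at an unadjusted p under 0.05 or by DESeq2 or limma-voom. The median log2 fold change was −0.62 over the 9 genes and 0.01 over all tested genes. That −0.62 is the value of Mmp3, which was not called. Because the 9 genes were chosen with earlier results of these data known, these comparisons with all tested genes only describe them. Mmp19, Timp1, Timp3 and Timp4 lay between −0.14 and −0.06.

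**Figure D1:**
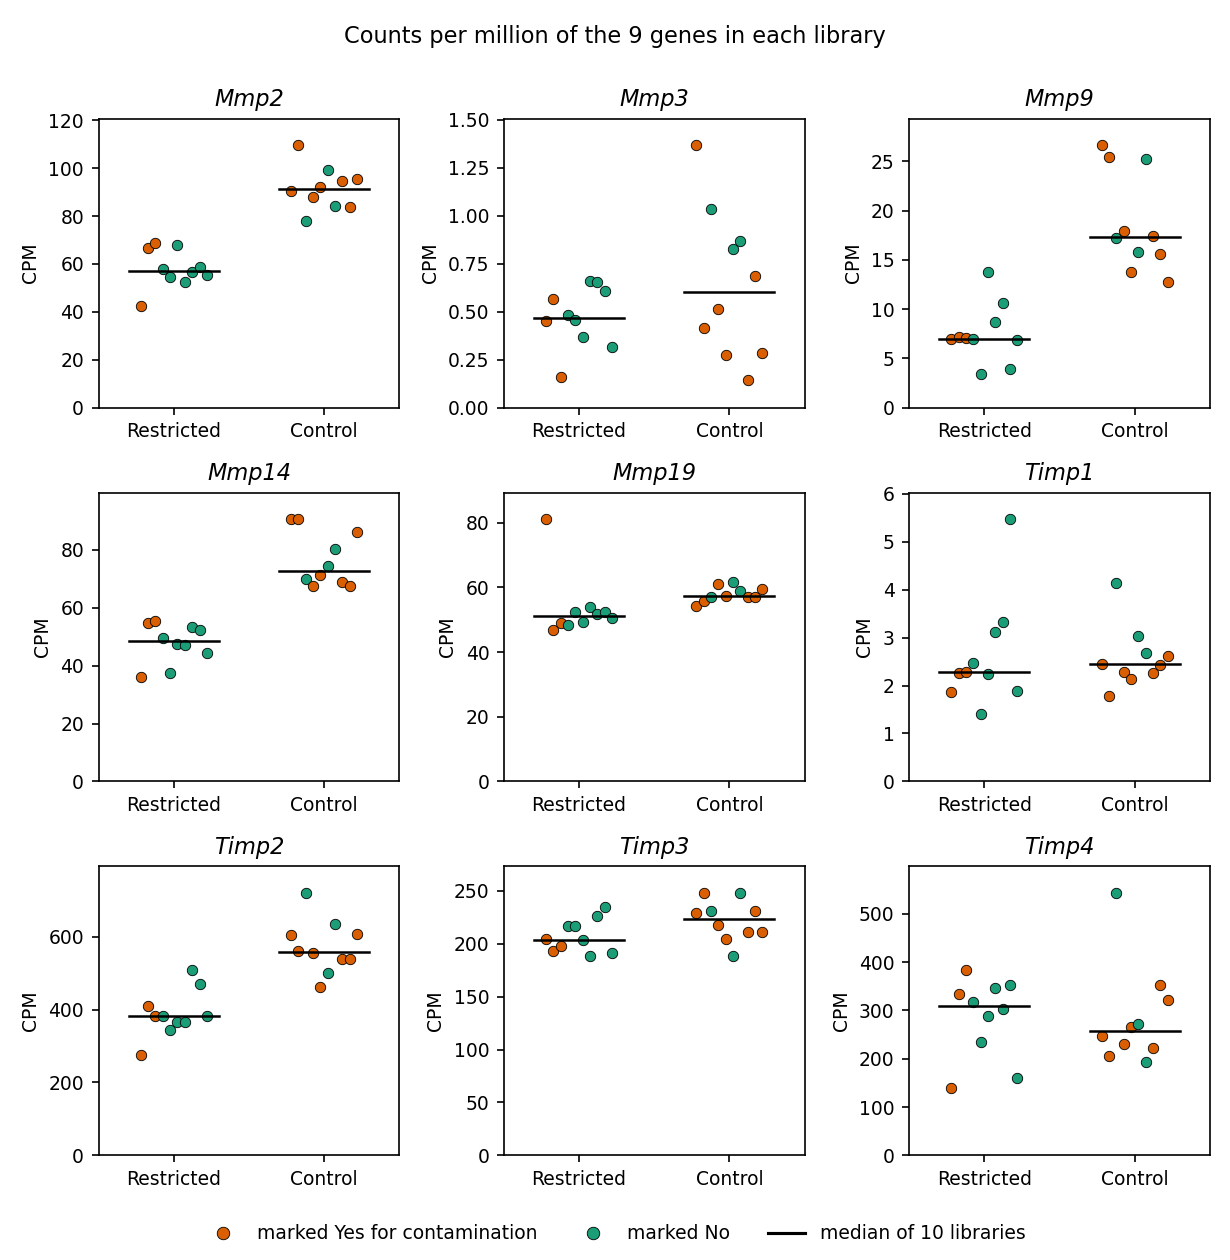
CPM values (linear axis from 0) of the 9 genes in each of 10 restricted and 10 control libraries; points are libraries, coloured by the contamination label, and lines are medians. The Mmp2 and Mmp14 points of the 2 diets do not overlap (Mmp14 highest at 55.3 CPM in restricted and lowest at 67.5 CPM in control libraries), and restricted library 1 stands alone in Mmp19 at 81.2 CPM.

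Mmp14 (chromosome 14, 54431612 to 54445364, plus strand, GRCm38) had a lowest value of 36.0, a median of 48.6 and a highest of 55.3 CPM in restricted libraries, against 67.5, 72.9 and 90.7 CPM in control libraries. Every restricted library lay below every control library. The fitted log2 fold change was −0.67 ± 0.091 (SE, n = 10 per diet, edgeR adjusted p = 8.8e-05), which is 37.0% below control.

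Mmp2, which cuts denatured and type IV collagen (chromosome 8, 92827291 to 92853419, plus strand), ran from 42.4 through a median of 57.1 to 68.9 CPM in restricted libraries, against 78.1, 91.4 and 109.7 CPM in control libraries. Again the groups did not overlap, a pattern that 94 of the 15986 tested genes (0.588%) showed in this direction. Its log2 fold change was −0.63 ± 0.082 (adjusted p = 6.18e-05 by edgeR).

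Timp2 (chromosome 11, 118301069 to 118355740, minus strand) ran from 274.7 through a median of 381.6 to 509.7 CPM in restricted libraries, against 462.6, 558.1 and 721.7 CPM in control libraries. The groups overlapped, with 8 of 10 restricted libraries below the lowest control. Its log2 fold change was −0.63 ± 0.094 (adjusted p = 0.000204 by edgeR). Its neighbour on the same strand, Cep295nl, lies within the Timp2 span, shares no exon base with it and had at most 3.02 CPM in restricted and 2.22 CPM in control libraries.

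Mmp9 (chromosome 2, 164940780 to 164955850, plus strand) ran from 3.43 through a median of 6.98 to 13.7 CPM in restricted libraries, against 12.7, 17.3 and 26.7 CPM in control libraries. Restricted library 6 was the only restricted library above the lowest control. The fitted log2 fold change was −1.36 ± 0.224 (adjusted p = 0.000468 by edgeR), which is 61.0% below control. With the RNA integrity number as a further term, in the 17 libraries that have one, it was −0.98 ± 0.301 (adjusted p = 0.0937), against −1.26 ± 0.263 (adjusted p = 0.00646) in the same 17 libraries without it. In the fit with that term, Mmp2, Mmp14 and Timp2 were called at −0.68, −0.61 and −0.56 (background 1.17% called lower).

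Mmp3, a broad-range stromelysin (chromosome 9, 7445822 to 7455975, plus strand), was barely detected. It had 3 to 26 counts, or 0.160 to 0.659 CPM with a median of 0.470, in restricted libraries, and 5 to 29 counts, or 0.146 to 1.37 CPM with a median of 0.601, in control libraries. Its log2 fold change of −0.62 was close to that of Mmp2 but had an SE of 0.343 (adjusted p = 0.248), and the ranges overlapped.

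Mmp19, a secreted protease of the same family (chromosome 10, 128790910 to 128799785, plus strand), ran from 47.0 through a median of 51.2 to 81.2 CPM in restricted libraries, against 54.3, 57.2 and 61.8 CPM in control libraries. Restricted library 1 held the highest value of all 20, and the other 9 restricted libraries lay below the lowest control. With all libraries the log2 fold change was −0.08 ± 0.079 (adjusted p = 0.525). Without restricted library 1 it was −0.23 ± 0.040 (adjusted p = 0.00106), and without the 6 libraries with muscle transcripts −0.25 ± 0.047 (adjusted p = 0.00767).

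Timp1, an inhibitor known to bind the Mmp9 proenzyme (chromosome X, 20870166 to 20874733, plus strand), was low in both diets. It ran from 1.40 through a median of 2.28 to 5.48 CPM in restricted libraries, against 1.78, 2.44 and 4.14 CPM in control libraries, and the ranges overlapped. Its log2 fold change was −0.14 ± 0.202 (adjusted p = 0.70). Timp1 lies within Syn1, a gene on the opposite strand with no shared exon base, which had up to 4.61 CPM in restricted and 2.06 CPM in control libraries.

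Timp3 (chromosome 10, 86300372 to 86349506, plus strand) ran from 188.7 through a median of 203.7 to 234.4 CPM in restricted libraries, against 188.7, 223.4 and 248.4 CPM in control libraries. The log2 fold change was −0.12 ± 0.060 (adjusted p = 0.197). It lies within Syn3 on the opposite strand, shares 1733 exon bases with it, and cannot be told apart from it there without a stated strand setting. Syn3 counts were small beside it, at 1.15 to 2.24 CPM in restricted and 0.824 to 2.97 CPM in control libraries.

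Timp4 (chromosome 6, 115241892 to 115251848, minus strand) ran from 139.5 through a median of 310.0 to 383.0 CPM in restricted libraries, against 193.2, 256.5 and 544.3 CPM in control libraries. The log2 fold change was −0.06 ± 0.202 (adjusted p = 0.884), and its sign turned to 0.19 without control library 3 and to 0.28 without the 6 libraries with muscle transcripts, called in neither. Syn2 on the opposite strand shares 90 exon bases with Timp4 and had 9.89 to 19.6 CPM in restricted and 7.91 to 15.4 CPM in control libraries.

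The differences were next read within each contamination label. Control library 3, marked No, is among the 6 libraries with muscle transcripts. Summed CPM of 12 germ cell markers ran from 3.87 to 7.35 in restricted and 3.38 to 35.2 in control libraries marked No. In libraries marked Yes the sums ran from 4.89 to 98.8 in restricted and from 2.68 to 25.3 in control libraries. In the libraries marked No alone (7 restricted, 3 control), the log2 fold changes were −0.60 for Mmp2, −0.66 for Mmp14 and −0.62 for Timp2, all called (background 1.63% called lower), and −1.33 for Mmp9 (adjusted p = 0.0544 by edgeR). In those marked Yes alone (3 restricted, 7 control), they were −0.65 for Mmp2, −0.63 for Timp2 and −1.39 for Mmp9, all called (background 0.996%), and −0.67 for Mmp14 (adjusted p = 0.05004, just above the threshold of 0.05). Without the 6 libraries with muscle transcripts, Mmp2, Mmp9, Mmp14, Mmp19 and Timp2 were called lower, 5 of 9 genes against a background of 3.19%. The interaction of diet and label was called for 0 of the 9 genes and for 0% of all tested genes. At an unadjusted p under 0.05 the interaction included 0 of the 9 genes and 871 of all tested genes, and 2 other settings (DESeq2-type size factors, no filter on low counts) also called 0 genes. Of the fits that left out 1 library, the one without control library 3 called 1 gene higher, and it was none of the 9. The label itself was called for 0 of the 9 genes (5.3% of tested genes) by edgeR. Limma-voom called Mmp3 lower in libraries marked Yes (log2 −1.12, adjusted p = 0.0423). By edgeR, Timp1 came closest with a log2 difference of −0.47 for Yes over No (unadjusted p = 0.0288, adjusted p = 0.279).

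**Figure D2:**
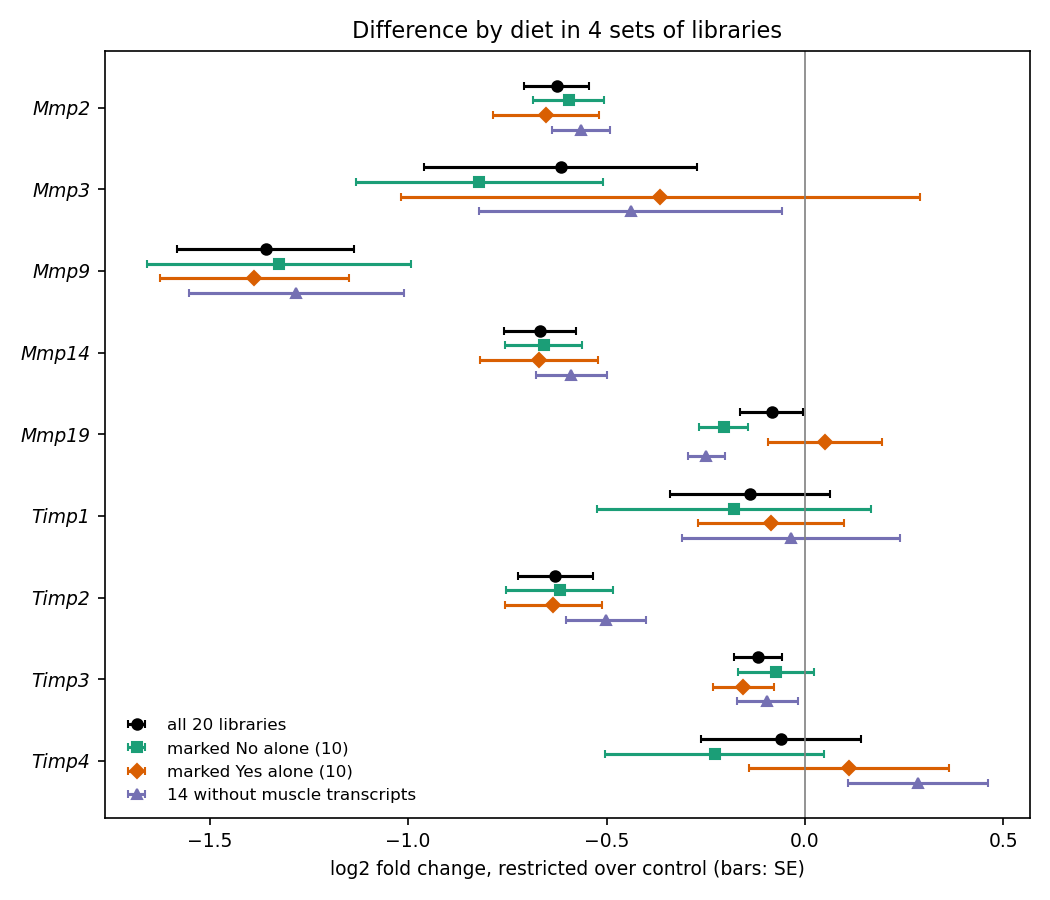
Fitted log2 fold changes of restricted over control libraries (horizontal axis, bars SE) for the 9 genes in 4 sets of libraries. Mmp2, Mmp14 and Timp2 lie between −0.50 and −0.67 in all 4 sets, Mmp9 between −1.28 and −1.39, and Timp4 lies on both sides of 0.

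Levels of different genes were compared as TPM, in which counts are divided by gene length and scaled to their library. Timp2, Timp4 and Timp3 stood above the proteases in mean level, except that Timp3 and Mmp2 were alike in control libraries. Means (± SD, n = 10) in restricted libraries were 312 ± 59.4 TPM for Timp2, 153 ± 49.1 for Timp4, 79.3 ± 6.87 for Timp3, 53.9 ± 9.38 for Mmp2, 47.1 ± 7.69 for Mmp19 and 25.1 ± 4.48 for Mmp14. Below these came Timp1 at 9.30 ± 4.19, Mmp9 at 6.70 ± 2.86 and Mmp3 at 0.820 ± 0.299 TPM. In control libraries Timp2 averaged 488 ± 63.1 TPM, Timp4 160 ± 56.0, Timp3 90.5 ± 8.29, Mmp2 90.3 ± 10.7, Mmp19 54.4 ± 2.32, Mmp14 42.9 ± 6.48, Mmp9 17.7 ± 5.21, Timp1 9.64 ± 2.35 and Mmp3 1.19 ± 0.746.

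The order of levels differed between the diets at 2 places, described here without a test. Timp3 stood above Mmp2 in 10 of 10 restricted libraries, against 5 of 10 control libraries. Timp1 stood above Mmp9 in 9 of 10 restricted libraries, whereas Mmp9 stood above Timp1 in 10 of 10 control libraries. Among restricted libraries, Mmp2 exceeded Mmp19 in 9 of 10, and their ranges overlapped.

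**Figure D3:**
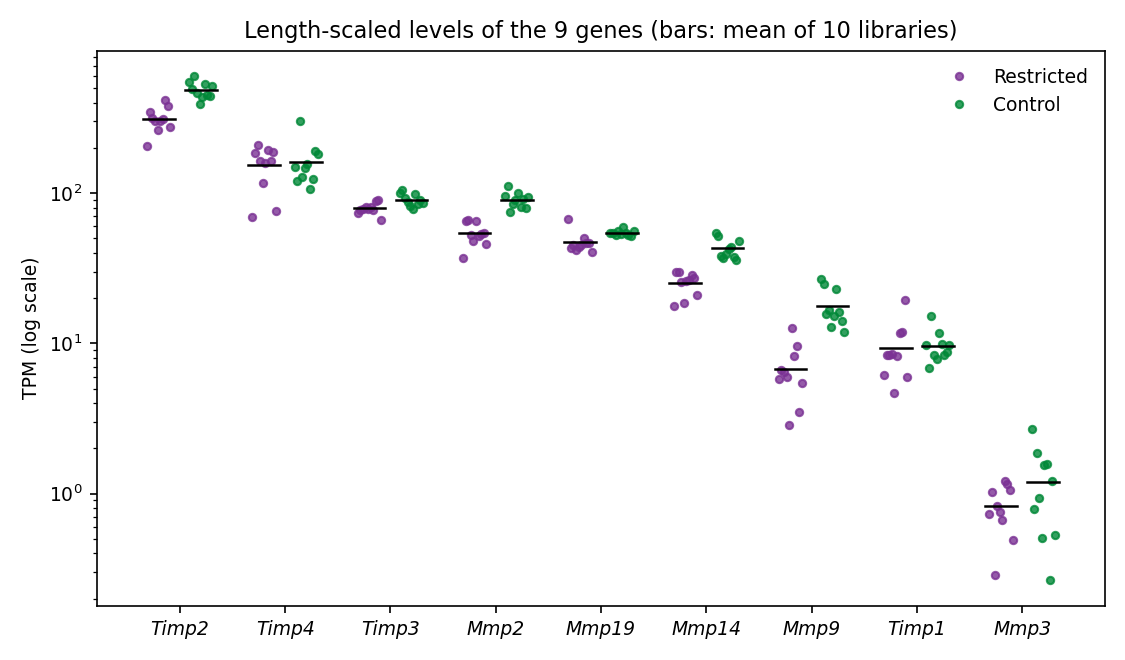
Length-scaled levels (TPM, log axis) of the 9 genes in restricted and control libraries; points are libraries and bars are means of 10. Timp2 leads in both diets (means 312 and 488 TPM), and the Mmp9 points lie beside those of Timp1 in restricted libraries and above them in control libraries.

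The 5 proteases summed to 113 to 150 TPM in restricted libraries, against 182 to 243 TPM in control libraries, without overlap. The 4 inhibitors summed to 356 to 682 TPM in restricted and 629 to 1010 TPM in control libraries, with overlap. The protease share of both sums together averaged 19.82% ± 2.82 in restricted and 21.82% ± 2.75 in control libraries (SD). The ranges of this share overlapped (16.43% to 26.53% in restricted and 15.38% to 25.15% in control libraries). The highest restricted share was that of restricted library 1 and the lowest control share that of control library 3, both with muscle transcripts. Next to them came 21.33% in restricted library 6 and 19.93% in control library 9. Restricted library 1 also held the lowest restricted inhibitor sum, and control library 3 the highest control sum. Timp2 made up a mean 56.6% ± 4.05 of the inhibitor sum in restricted libraries and 65.4% ± 3.77 in control libraries (SD, n = 10 each).

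Ratios among Mmp14, Mmp2 and Timp2 differed between the diets by less than the SD over libraries. The log2 ratio of Mmp14 to Timp2 averaged −3.63 ± 0.152 in restricted and −3.51 ± 0.218 in control libraries. That of Mmp2 to Timp2 averaged −2.53 ± 0.226 in restricted and −2.43 ± 0.279 in control libraries, and that of Mmp2 to Mmp14 was 1.11 ± 0.149 in restricted and 1.08 ± 0.157 in control libraries. The ratio of Mmp9 to Timp1 averaged −0.48 ± 0.783 in restricted and 0.86 ± 0.551 in control libraries, with ranges that overlapped (highest restricted 0.62, lowest control 0.06).

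**Figure D4:**
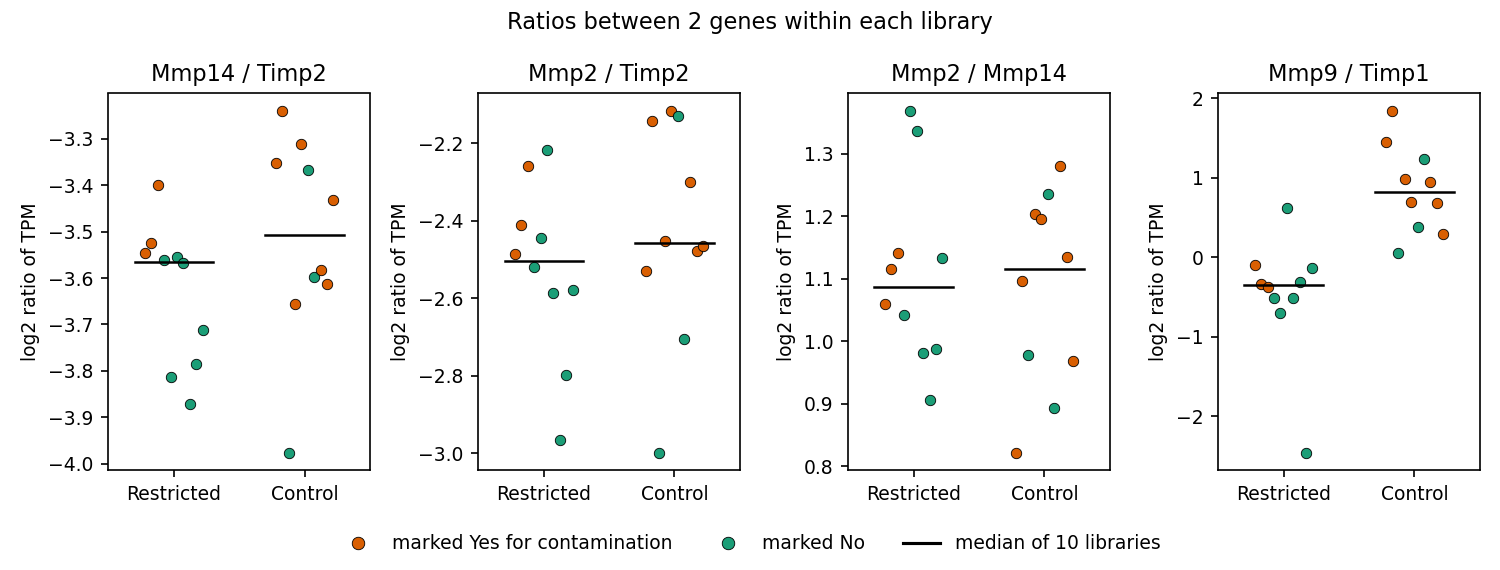
Log2 ratios of TPM between pairs of genes in each library (each panel has its own vertical scale), coloured by the contamination label, with the median of 10 as a line. The first 3 panels overlap between diets, and Mmp9 over Timp1 has a median of −0.35 in restricted and 0.82 in control libraries.

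Relations among the genes from library to library were measured on log2 CPM after removal of the means of the 4 diet and label groups, for 5 pairs chosen by known biochemistry. Mmp14 and Timp2 had a Pearson r of 0.67 and a Spearman rho of 0.62 over 20 libraries (permutation p = 0.00276 and 0.00284, adjusted over 5 pairs 0.0138 and 0.0142). Within labels, r was 0.55 in libraries marked No and 0.81 in those marked Yes (adjusted permutation p = 0.263 and 0.059). Without restricted libraries 1 and 5, the farthest from the Mmp14 median, r was 0.51 and rho 0.50 (adjusted permutation p = 0.115 and 0.0635), so passing the threshold rested on them.

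Mmp2 and Mmp14 had an r of 0.67 and a rho of 0.65 (permutation p = 0.0162 and 0.0091, adjusted 0.0405 and 0.0227), with 0.24 in libraries marked No and 0.84 in those marked Yes (adjusted permutation p = 0.581 and 0.059). Without restricted libraries 1 and 3, r was 0.48 and rho 0.55 (adjusted permutation p = 0.209 and 0.138), and here too passing the threshold rested on those libraries. Ranked by r among 14293 genes averaging at least 1 CPM, Mmp14 stood at 202 for Mmp2, and Mmp2 at 443 for Mmp14. Timp2 stood at 471 for Mmp14, and Mmp14 at 417 for Timp2, so many other genes had a higher r. The other 3 pairs had r of 0.25 for Mmp2 and Timp2, −0.06 for Mmp9 and Timp1, and 0.26 for Mmp3 and Timp1 (adjusted permutation p = 0.639, 0.876 and 0.188), with rho of 0.17, −0.02 and 0.43 (permutation p = 0.552, 0.951 and 0.0459, adjusted 0.69, 0.951 and 0.0765).

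As a description, the genes most alike to each across the same 20 residuals, among genes averaging at least 1 CPM, were as follows. Beside Mmp14 stood Arhgef10l (r = 0.96), H2-Ab1 (0.90) and Tmem158 (0.89), of which Arhgef10l and the class II antigen gene H2-Ab1 were themselves called lower by diet (log2 −0.45 each, adjusted p = 0.0062 and 0.00182 by edgeR). Beside Timp2 stood Serping1 (r = 0.94), Plxnb2 (0.93) and Tgfbi (0.90). Serping1, which encodes the inhibitor of the initiating complement proteases, was lower by diet at −0.49 on the log2 scale (adjusted p = 0.00124). Mmp2 was most like Mllt6 (r = 0.88), Camta2 (0.86) and Odf2 (0.86), and Mmp9 most like Zfp652 (0.81), Tyk2 (0.79) and Kmt2d (0.78). Mmp19 was most like Idh1 (0.95), Gm33432 (0.91) and Ykt6 (0.91). Restricted library 1 was the highest restricted library for Mmp19 and the lowest for Mmp2, Mmp14, Timp2 and Timp4. It is among the 20 points of each r given here. Timp1 was most like Spi1 (0.82), Mgat3 (0.82) and Trim35 (0.81), Timp3 most like Ror1 (0.81), Rcn3 (0.76) and Oas1a (0.75), and Timp4 most like Gm47416 (0.93), C1s1 (0.91) and Lix1l (0.90). Tgfbi, Camta2, Tyk2 and Ror1 were also called lower by diet (log2 −0.27, −0.21, −0.21 and −0.51, edgeR adjusted p = 0.0371, 0.0118, 0.00943 and 0.0184). The rest of these alike genes were not called. Mmp3 averaged below 1 CPM and was left out.

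Counts for other genes of the same proteolytic system are read against the 7.29% of all tested genes called lower and the 6.31% called higher. Without the 6 libraries with muscle transcripts, they are read against 3.19% called lower and 397 of 16591 tested genes called higher. Of 16 further metalloproteases, 9 were tested, 0 were called higher by edgeR and 2 lower. Mmp15, a membrane-anchored relative of Mmp14, stood at 0.32 on the log2 scale with an unadjusted p of 0.00781 (adjusted p = 0.0547 by edgeR). The lower ones were Mmp23 at −0.39 and Mmp27 at −0.76 (adjusted p = 0.0374 and 0.0166 by edgeR), and neither was called without the 6 libraries with muscle transcripts. Mmp27 was low in both diets, with a mean of 0.814 CPM in restricted and 1.32 CPM in control libraries.

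Of 8 tested genes of plasminogen activation, a cascade that can activate metalloproteases, 3 were lower. They were the urokinase gene Plau at −0.32, the tissue activator Plat at −0.28 and the inhibitor Serpine2 at −0.21. None of these 3 was called without the muscle libraries.

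Of 15 tested regulators at the membrane or in the matrix, Pcsk6, a proprotein convertase, was called higher (log2 0.45, adjusted p = 0.0356) and none lower, a share near that of all tested genes. Without the muscle libraries Pcsk6 (0.58) and the thrombospondin Thbs2 (1.16) were called higher. Of 20 tested ADAM and ADAMTS proteases, 4 were lower (Adam8 at −0.79, Adam19 at −0.53, Adamts12 at −0.40, Adamts4 at −0.76) and Adamts8 was higher at 1.18. Adamts8 was barely detected, with a mean of 0.683 CPM in restricted and 0.328 CPM in control libraries. Without the muscle libraries 6 of 21 tested were called lower, Adam8, Adam19 and Adamts12 among them, and 0 higher. Of 17 tested upstream regulators 3 were lower, namely Nfkb1 at −0.28, Sp1 at −0.18 and Tcf21 at −0.46, and Nfkb1 alone was called lower without the muscle libraries (−0.30).

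Of 20 matrix substrates, 7 were lower and 1 higher. The lower ones with the smallest p were Dcn (−0.60), Lama4 (−0.34), Fn1 (−0.56) and Col1a2 (−0.40), which encode decorin, a laminin chain, fibronectin and a collagen I chain. Sparc, a collagen-binding matricellular protein, was higher at 0.28. Without the muscle libraries Dcn (−0.49) and Lama4 (−0.37) were called lower and 0 higher.

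Markers of cell types that the fat pad can hold were counted in the same way. Of 12 macrophage markers 11 were lower (median log2 −0.47), with a summed level of 1098 to 1716 CPM in restricted and 1496 to 2002 CPM in control libraries, and 7 were lower without the muscle libraries. Of 5 tested mast cell markers 4 were lower, with a sum of 27.1 to 37.9 CPM in restricted and 45.7 to 77.2 CPM in control libraries, and 4 were lower without the muscle libraries. Of 5 tested neutrophil markers 2 were lower, with a sum of 6.74 to 9.45 CPM in restricted and 8.07 to 12.4 CPM in control libraries, 1 was lower without the muscle libraries, and the neutrophil gene Ly6g was at 0 in every library. Of 12 progenitor and fibroblast markers 3 were lower, among them Pdgfra at −0.61, with a sum of 12290 to 23770 CPM in restricted and 18180 to 24780 CPM in control libraries, and 2 were lower without the muscle libraries. Most of that sum was Gsn, which averaged 17360 CPM in restricted and 17990 CPM in control libraries and was not called. Of 10 adipocyte markers 2 (Lep and Fabp4) were higher and 0 lower, and without the muscle libraries 0 were called. Of 8 endothelial markers 2 (Tek and Vwf) were lower, and Vwf alone without the muscle libraries. Of 8 pericyte and smooth muscle markers Cspg4 was higher and Myh11 lower, and Myh11 alone was called without the muscle libraries. Their sum was higher in restricted libraries without overlap, at 650.4 to 817.7 CPM against 544.7 to 640.5 CPM in control libraries. Of 7 mesothelial markers 0 were called in either set by edgeR, and Wt1 alone had an unadjusted p under 0.05 with all libraries (p = 0.0252). The sum of 11 epididymis epithelium genes ran from 2.38 to 10.9 CPM in restricted and from 3.52 to 331.4 CPM in control libraries. Of these genes 2 were tested, and 0 were called by diet. The part of these cell types in the lower Mmp2, Mmp9, Mmp14 and Timp2 was not tested.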

How the data were processed

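PolyA libraries were made with a Tecan kit from Trizol-extracted RNA, per the labels' protocols. The extraction text names another tissue (QUAD) and the tissue label eWAT was used. The submitters' processing notes name STAR, Salmon and bcl2fastq 4.0.3. The authors deposited whole-number counts per gene; no source used here names the counting tool or strand setting. Genes and lists were chosen with earlier results of these data known.

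All 55401 genes entered edgeR 4.0.16 (R 4.3.3): filterByExpr with a minimum count of 10 left 15986 genes, TMM factors, quasi-likelihood fit with contamination label and diet, two-sided tests, Benjamini-Hochberg adjustment at 0.05. CPM are counts over the tested-gene total times the TMM factor, and TPM use the deposited lengths. SE is the log2 fold change divided by the root of F. At a biological coefficient of variation of 0.179, counting error matters mainly near 1 CPM. Correlations used log2 CPM (prior count 2) and 100000 permutations within the 4 groups. Named genes were the 9 genes, up to 4 called genes per list and direction by p, overlapping genes and the 3 most alike genes. Promoters are RefSeq's (6 of 9 genes matched). A planned comparison of protein sequences was not made. Alternatives used DESeq2 1.42.0, limma 3.58.1, other scalings, filters and subsets. The fit was tested on simulated data. A result of the plasminogen list is not reported here.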

Additional observations from a re-analysis of the deposited data

Results flagged for a closer look

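In 24 groups of 10 libraries, a value was singled out where its gap to the nearest other value exceeded 0.466 of the range, which chance alone does in about 1 in 20 groups. Mmp19 in restricted library 1 stood at 81.2 CPM, above the other restricted libraries. Timp1 stood high in restricted library 9 (5.48 CPM) and in control library 3 (4.14 CPM). Timp4 stood high in control library 3 (544.3 CPM). The log2 ratio of Mmp9 to Timp1 was lowest in restricted library 9 (−2.46). Restricted library 1 and control library 3 are among the 6 with muscle transcripts, and the part of these in the values was not tested.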

How the results depend on the processing

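Mmp2, Mmp9, Mmp14 and Timp2 stayed called lower in all 80 fits that left out 1 library and in 53 of 56 other fits. The exceptions were Mmp9 in libraries marked No alone (−1.33) and with the RNA integrity term (−0.98), and Mmp14 in libraries marked Yes alone (−0.67). Leaving out single libraries gave −0.67 to −0.54 for Mmp2, −1.45 to −1.26 for Mmp9, −0.71 to −0.59 for Mmp14 and −0.69 to −0.56 for Timp2, with 4 to 5 of the 9 genes called lower. Mmp19 was called lower by limma-voom with quality weights (−0.19) and without the muscle libraries (−0.25), ranged from −0.23 to −0.040 when single libraries were left out, and turned to 0.050 in libraries marked Yes and 0.024 with the RNA integrity term. Timp1 turned to 0.042 with no label term. Timp4 turned to 0.0013 with no label term, 0.076 by limma-voom, 0.11 in libraries marked Yes and 0.28 without the muscle libraries, and ranged from −0.20 to 0.19 when single libraries were left out. The cause was not tested. Mmp3 had no value at a minimum count of 50.

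Genes called higher numbered 599 with no filter, 130 and 69 in libraries marked No and Yes, 203 with the RNA integrity term, 397 without the muscle libraries and 660 to 1076 with single libraries left out, fewest without control libraries 6 (660) and 7 (668), against 1008. Genes called lower numbered 270 and 170 in libraries marked No and Yes, 189 with the RNA integrity term, 771 in the 17 libraries that have such a number and 530 without the muscle libraries, against 1165. With a replicate block, 514 genes were higher and 874 lower, and the same 4 of 9 genes were called lower; same-numbered libraries correlated at −0.0964 to 0.0931, and 0 of 10 numbers matched best, so the numbers were not taken as pairs.

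For the label, the sign turned for Mmp2 (−0.0029 with the RNA integrity term), Mmp9 (0.029 with the block, 0.29 with the RNA integrity term, 0.016 in the 17 libraries), Mmp14 (−0.0080 with the block), Mmp19 (−0.026 by limma-voom, −0.080 without the muscle libraries, −0.065 to 0.12 when single libraries were left out, lowest without restricted library 1) and Timp4 (0.34 without the muscle libraries, −0.32 to 0.076 when single libraries were left out, highest without control library 3), none of them called. The correlation of Mmp2 and Mmp14 was 0.24, 0.84 and 0.48 in libraries marked No, marked Yes and without the 2 farthest, that of Mmp14 and Timp2 was 0.55, 0.81 and 0.51, and that of Mmp2 and Timp2 turned to −0.37 and −0.092 in libraries marked No and without the 2 farthest. Mmp3 and Timp1 had the fewest counts of the 9 genes.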

Other observations

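Mmp12, the macrophage elastase, had 1.12 to 10.9 CPM in restricted and 2.97 to 34.7 CPM in control libraries (log2 −0.97 ± 0.425, edgeR adjusted p = 0.138). Mmp7, an epithelial protease, ran from 0 to 60.9 CPM in restricted and from 0 to 46.4 CPM in control libraries (edgeR adjusted p = 0.368).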
